A study of Mus musculus with 8 samples.

Results

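The 10 genes described here are heat shock and small chaperone genes, taken by symbol from the gene count table of 55291 genes: *Hspa1a*, *Hspa1b*, *Hspa8*, *Hsp90aa1*, *Hsph1*, *Dnajb1*, *Hspb1*, *Hspb8*, *Cryab* and *Bag3*. All 10 were found, and all 10 passed the filter on low counts that left 19470 genes for testing. They were measured by RNA-seq of whole lumbar spinal cord from 8 male *SOD1*G93A mice on a C57BL/6 background, a model of amyotrophic lateral sclerosis in which a mutant human superoxide dismutase is expressed. *Ager* encodes RAGE, a receptor for glycated proteins and other danger ligands. By the labels it was deleted in the microglia of 4 mice (*Ager* fl/fl *Cx3cr1* Cre/+, mice E1776, E5231, E5248 and E5568), called *Ager*-deleted below. The other 4 were Cre-expressing controls with intact *Ager* (*Ager* +/+ *Cx3cr1* Cre/+, mice E5386, E5642, E6578 and E6732). All 8 mice carried the *SOD1*G93A transgene, all had lost 1 *Cx3cr1* copy to the inducible Cre, and all were given 5 injections of tamoxifen, at 12 weeks by the labels and somewhat later by the study's text. By the labels every mouse was 120 days old, whereas the study's text places the RNA-seq at the humane endpoint. Mice without the transgene were not analysed here, so no level below can be read as raised or lowered by disease.

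Heat shock proteins are chaperones, which bind unfolded or misfolded proteins and help them to refold, to stay soluble or to be degraded. HSP70 proteins work in cycles with J-domain partners of the HSP40 family, which deliver substrates and trigger ATP hydrolysis, and with nucleotide exchange factors of the HSP110 and BAG families, which reset the cycle. The small heat shock proteins hold unfolded clients without using ATP, and several of these genes are switched on by heat shock factor 1 (HSF1) when misfolded protein accumulates. Mutant SOD1 misfolds and aggregates in motor neurons and glia, and small heat shock proteins are prominent in reactive astrocytes.

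Total counts on genes ranged from 31148047 to 40324897 per mouse, and the 10 genes together took between 0.252% and 0.284% of them. *Ager* (chromosome 17, 34597862 to 34600936, forward strand), the targeted gene, was measured at 0.889, 1.51, 1.02 and 1.34 CPM (each count as a share of its library's total, scaled by TMM, a trimmed mean of log ratios) in the *Ager*-deleted mice, in the order given above, and at 1.53, 2.22, 2.18 and 2.41 CPM in the controls. The groups did not overlap, with a log2 fold change of -0.81 (standard error 0.22) that did not pass adjustment over all genes (adjusted p = 0.252, edgeR's exact test). The Cre acts only in *Cx3cr1*-expressing cells, whereas the RNA was from whole cord. Oligodendrocyte, astrocyte, neuron and microglia markers were abundant in all 8 mice (summed levels from 861 CPM for 7 microglia genes to 23950 CPM for 7 oligodendrocyte genes). Several libraries stood apart in other markers. Skeletal muscle genes (19 in the list, none at or under 3 counts in every mouse) summed to 1179 CPM in control E5386 and 1815 CPM in control E5642, against 24.7 and 44.6 CPM in the other controls and 24.2 to 36.4 CPM in *Ager*-deleted mice. Liver genes summed to 612 CPM in control E6732 and adipocyte genes to 141 CPM in control E5386, against at most 2.66 and 6.95 CPM in the other mice. The summed level of Schwann cell genes was 6.78 CPM in E5386 and from 200.3 to 742 CPM elsewhere. Log2 fold changes are therefore also given without E5386 and E5642 where that moved them by over 1.5 times or changed their sign.

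None of the 10 chaperone genes passed an adjusted p under 0.05 with edgeR's exact test, beside 0.0719% of the 19470 genes tested, and none passed in edgeR's quasi-likelihood test, beside 0.00514%. At an unadjusted p under 0.05 the exact test gave 1 of 10, *Dnajb1*, beside 4.26% of all genes, or 1.20% in the same direction. The quasi-likelihood test gave the same count, beside 6.71% of all genes. DESeq2, limma-voom and edgeR with common and tagwise dispersions also called none of the 10, beside 0.143%, 0.00514% and 0.401% of all genes. In 7 of the 10 the log2 fold change was above 0, that is, higher in *Ager*-deleted mice, beside 52.0% of all genes, and the median was 0.07 beside 0.01 over all genes. Of these 7, *Hsp90aa1* (0.02) and *Bag3* (0.01) changed sign in some fits with 1 mouse left out. Reads of *Hspa1a* and *Hspa1b*, also among the 7, cannot always be told apart. In 2 of 10, *Hspa8* and *Dnajb1*, every *Ager*-deleted mouse lay above every control, beside 3.88% of all genes whose groups did not overlap and 1.97% in that direction.

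**Figure D1:**
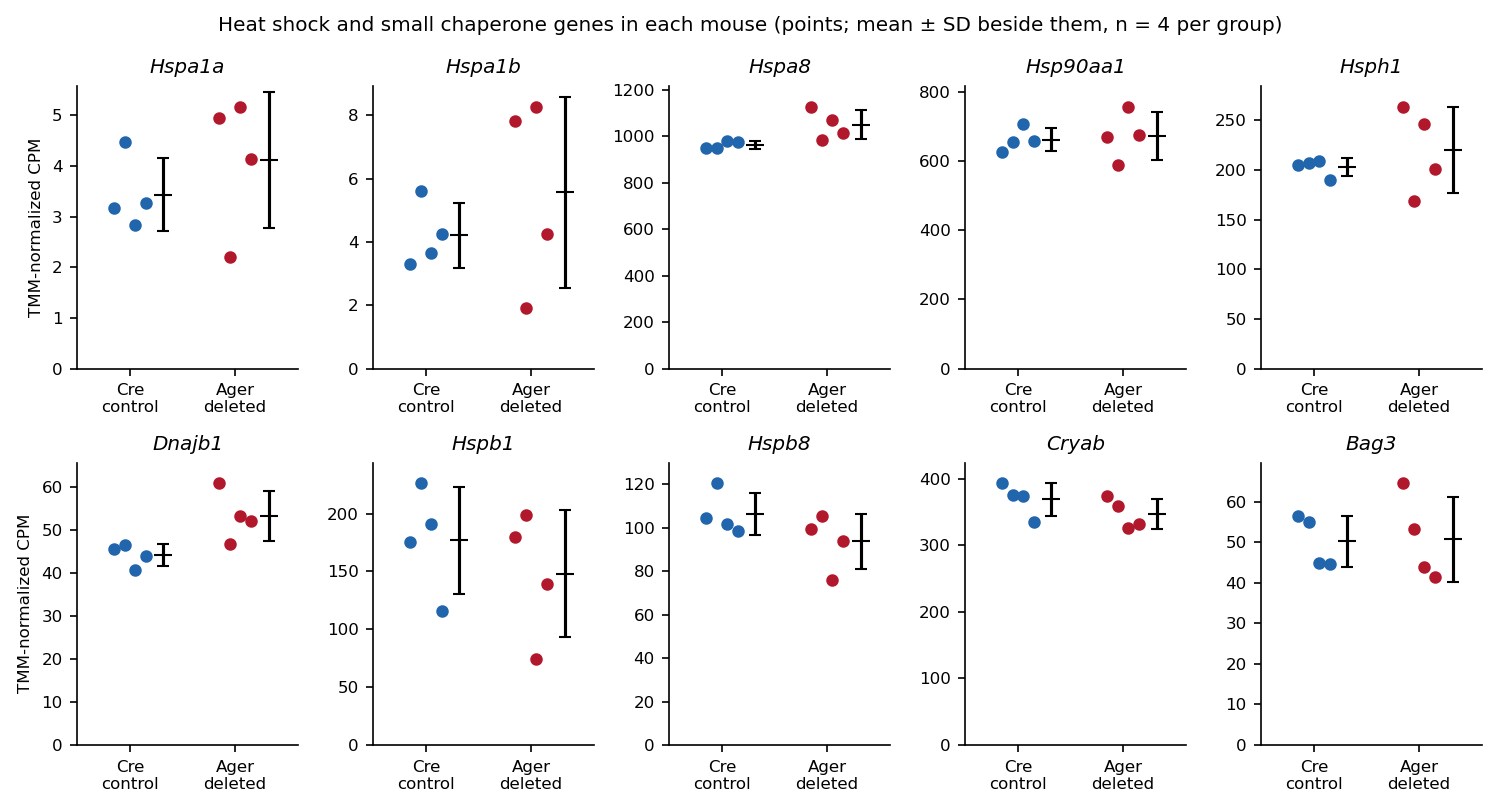
Level of each of the 10 genes in TMM-normalized CPM (y axis, starting at 0) in each mouse, with Cre-expressing controls in blue, *Ager*-deleted mice in red, and the mean with its SD (n = 4) beside each group. The groups are apart only for *Hspa8* and *Dnajb1*, and *Hspa1a* and *Hspa1b* scatter more among *Ager*-deleted mice than among controls.

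*Hspa1a* and *Hspa1b* encode the stress-inducible HSP70, the protein most often used as a readout of the heat shock response. Both lie on the reverse strand of chromosome 17 (GRCm38), *Hspa1b* from 34956436 to 34959238 and *Hspa1a* from 34969190 to 34972156, 9951 bp apart. *Ager* is on the same chromosome, 356 kb from *Hspa1b* and 368 kb from *Hspa1a*. The coding sequences of the pair differ at 11 of 1929 aligned positions and share an identical stretch of 638 bp, so reads cannot always be assigned to one gene. Against *Hspa1a*, the coding sequence of the neighbouring *Hspa1l* was 82.9% identical and that of *Hspa8* 74.1%. *Hspa1a* also overlaps *Gm20481* on the opposite strand, and whether the counting used strand is not given in the sources used here.

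The upstream sequences of the pair are shown because its reads cannot always be assigned to either gene and its profiles over mice were similar. Those of *Hspb1*, *Hsph1* and *Dnajb1* are shown because these genes are compared with the pair below. HSF1 binds inverted repeats of the unit GAA. Windows of 250 bases before to 50 bases after each start site, from the RefSeq promoter table (GRCm38.p6), held 7 of the 10 genes and no entry for *Cryab*, *Hsp90aa1* or *Hspa8*. Each was searched for GAANNTTC or TTCNNGAA, which hold 2 units and each read the same on both strands. The 250 bases before the start site follow, 5′ to 3′ on the strand of the gene, with each match in capitals, for *Hspa1a* (chr17:34972157-34972406, reverse strand), *Hspa1b* (chr17:34959239-34959488, reverse), *Hspb1* (chr5:135887669-135887918, forward), *Hsph1* (chr5:149636337-149636586, reverse) and *Dnajb1* (chr8:83607925-83608174, forward).
Hspa1a: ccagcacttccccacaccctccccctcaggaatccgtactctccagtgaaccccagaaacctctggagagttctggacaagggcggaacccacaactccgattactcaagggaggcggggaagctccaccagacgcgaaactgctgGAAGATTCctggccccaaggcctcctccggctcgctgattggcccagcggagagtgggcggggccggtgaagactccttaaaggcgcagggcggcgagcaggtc
Hspa1b: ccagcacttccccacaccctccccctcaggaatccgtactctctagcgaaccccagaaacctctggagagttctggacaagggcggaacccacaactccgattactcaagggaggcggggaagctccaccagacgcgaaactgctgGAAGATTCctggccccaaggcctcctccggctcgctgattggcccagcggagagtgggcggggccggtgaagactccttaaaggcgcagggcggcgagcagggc
Hspb1: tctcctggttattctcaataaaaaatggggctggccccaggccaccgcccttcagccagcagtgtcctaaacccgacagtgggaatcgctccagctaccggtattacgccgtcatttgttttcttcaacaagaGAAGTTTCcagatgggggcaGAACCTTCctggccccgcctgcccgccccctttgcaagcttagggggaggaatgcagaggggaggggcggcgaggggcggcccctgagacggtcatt
Hsph1: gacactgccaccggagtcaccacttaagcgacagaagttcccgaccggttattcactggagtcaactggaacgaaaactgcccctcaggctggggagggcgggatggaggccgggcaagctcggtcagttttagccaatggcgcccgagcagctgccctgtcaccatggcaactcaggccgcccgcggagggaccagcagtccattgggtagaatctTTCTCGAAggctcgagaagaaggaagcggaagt
Dnajb1: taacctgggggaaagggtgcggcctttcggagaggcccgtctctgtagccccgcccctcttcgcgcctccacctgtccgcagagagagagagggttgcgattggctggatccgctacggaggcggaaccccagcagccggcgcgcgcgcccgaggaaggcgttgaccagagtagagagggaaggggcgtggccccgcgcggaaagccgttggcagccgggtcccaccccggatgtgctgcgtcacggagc

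The upstream windows of *Hspa1a* and *Hspa1b* were identical at 247 of 250 bases, and each held 1 match, beginning 104 bases before the start site. *Hspb1* held matches at 117 and 97 bases before its start site. *Hsph1*, which had 2 overlapping windows, held 1 match upstream, the same site lying 33 and 54 bases before its 2 start sites. *Hspb8* and *Bag3* held a match only after the start site, and *Dnajb1*, also with 2 windows, held none. In all, 6 of the 7 genes held a match of 2 units, beside 17.0% of 27025 genes with a window. With 3 units at the same spacing in a row, a match was found in 1 of the 7, *Hsph1*, after its start site, and in 0.662% of all genes. Of 74 tested genes with 3 units in a window, none passed the adjusted p in edgeR's exact test, beside 0.0719% of all genes tested. At that share a list of this length would mostly hold none. None of the 74 had an unadjusted p under 0.05, beside 4.26%, and their median log2 fold change was 0.01, as over all genes. For 1 of the 74 the groups did not overlap, with *Ager*-deleted mice higher, beside 1.97% of all genes. A match is a description of the sequence and not evidence that HSF1 was bound.

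In the *Ager*-deleted mice *Hspa1a* was at 4.95, 2.21, 5.16 and 4.14 CPM, and in the controls at 3.17, 4.48, 2.83 and 3.26 CPM. *Hspa1b* was at 7.82, 1.91, 8.27 and 4.26 CPM in *Ager*-deleted mice and at 3.31, 5.62, 3.64 and 4.26 CPM in controls. For both genes the *Ager*-deleted group held the 2 highest mice, E1776 and E5248, and also the lowest, E5231, so that the groups overlapped. The means were 4.12 ± 1.34 against 3.43 ± 0.720 CPM for *Hspa1a* and 5.57 ± 3.02 against 4.21 ± 1.02 CPM for *Hspa1b* (SD, n = 4 in each group). These give log2 fold changes of 0.26 (standard error 0.25, 95% interval -0.30 to 0.82) and 0.40 (standard error 0.38, 95% interval -0.44 to 1.25), neither called by edgeR's exact test (adjusted p = 1 for both). A difference of either sign lay within both intervals. Without E5231 the log2 fold change of *Hspa1b* was 0.69, and without E5248 it was 0.15, with adjusted p-values of 0.886 and 1 in edgeR's exact test. For *Hspa1a* it was 0.47 without E5231, 0.14 without E5248 and 0.43 without E5386 and E5642.

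Since reads of the pair can be shared, their counts were also added. The sum was 153 to 503 counts per *Ager*-deleted mouse and 199 to 327 per control, with a log2 fold change of 0.34 (standard error 0.32; adjusted p = 1, edgeR's exact test). *Hspa1a* took 38.5% (95% exact binomial interval 34.1 to 43.0) of the counts of the pair in E5248, the mouse with the highest summed CPM, and 38.8% (34.5 to 43.2) in E1776, the next highest. In E5231, the mouse with the lowest sum, it took 53.6% (45.4 to 61.7). The shares in the other 5 mice lay between 43.4% and 49.2%. The intervals of E5248 and E1776 overlapped that of every control, such as E6732 (37.8 to 49.1) and E5386 (42.4 to 55.5). They did not overlap those of E5231 and E5568 (43.7 to 54.8). The sum itself holds *Hspa1b*, so the order of mice by the sum is not independent of this share.

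*Hspa8* encodes HSC70, the constitutive HSP70 of every cell, which also drives chaperone-mediated autophagy and the uncoating of clathrin vesicles at synapses. It lies on chromosome 9 from 40800984 to 40810087 (forward strand) and hosts the small nucleolar RNA genes *Snord14c*, *Snord14d* and *Snord14e*. Its level was 1127, 986, 1070 and 1016 CPM in *Ager*-deleted mice and 949, 951, 980 and 976 CPM in controls. Every *Ager*-deleted mouse was above every control (exact two-sided permutation test on log2(CPM + 1), p = 0.0286, the smallest that 4 mice against 4 allow). The gap between the groups was narrow. The lowest *Ager*-deleted mouse, E5231, exceeded the highest control, E6578, by 6.19 CPM, less than the counting error of 7.64 CPM for that difference. Its log2 fold change was 0.12 (standard error 0.07, 95% interval -0.04 to 0.29; adjusted p = 1, edgeR's exact test).

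*Dnajb1*, an HSP40 protein that is the main stress-inducible J-domain partner of HSP70, showed the smallest p of the 10. It lies on chromosome 8 from 83608193 to 83612653 (forward strand). Levels were 60.9, 46.8, 53.3 and 52.2 CPM in *Ager*-deleted mice and 45.7, 46.6, 40.8 and 43.9 CPM in controls, with means of 53.3 ± 5.82 and 44.2 ± 2.56 CPM (SD, n = 4). All 4 *Ager*-deleted mice were above all 4 controls (exact permutation, p = 0.0286), but E5231 exceeded control E5642 by 0.262 CPM only, against a counting error of 1.64 CPM for that difference. This is a ratio of 1.21, or a log2 fold change of 0.27 (standard error 0.08, 95% interval 0.08 to 0.45). Its p was 0.0110 before adjustment and 0.764 after it in edgeR's exact test, and the quasi-likelihood test gave 0.713 after adjustment. Leaving out 1 mouse at a time gave 0.20 to 0.33 on the log2 scale, and it was 0.33 without E5386 and E5642, and no adjusted p among these was under 0.429. For both *Hspa8* and *Dnajb1*, groups apart with all 4 controls must stay apart without those 2, so their removal adds no test. Without those 2 controls the groups did not overlap for 12.9% of all genes, 6.48% in that direction and 6.41% in the other.

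*Hsp90aa1* encodes the inducible cytosolic HSP90, which matures kinases and steroid receptors and holds HSF1 inactive. It lies on chromosome 12 from 110690605 to 110702728 (reverse strand). *Ager*-deleted mice had 669, 590, 757 and 675 CPM and controls 628, 655, 707 and 657 CPM, so the controls lay within the range of the *Ager*-deleted mice. The log2 fold change of 0.02 (standard error 0.09, 95% interval -0.17 to 0.22) was the nearest to 0 after *Bag3*, and it was -0.03 without E5386 and E5642. *Hsph1* encodes HSP110, a nucleotide exchange factor for HSP70 that helps to dissolve aggregates, and lies on chromosome 5 from 149614287 to 149636376 (reverse strand). It was at 264, 169, 246 and 201 CPM in *Ager*-deleted mice and at 205, 207, 209 and 190 CPM in controls. Controls varied little (SD 8.85 CPM), whereas *Ager*-deleted mice held both the highest and the lowest levels (SD 43.0 CPM). On the log2 scale the difference was 0.12 (standard error 0.12, 95% interval -0.16 to 0.39; adjusted p = 1, edgeR's exact test), and 0.02 without E1776.

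*Hspb1* encodes HSP27, a small heat shock protein of reactive astrocytes and injured motor neurons, and lies on chromosome 5 from 135887919 to 135889563 (forward strand). It varied most of the small chaperones, at 180, 199, 74.2 and 139 CPM in *Ager*-deleted mice and 175, 226, 191 and 115 CPM in controls. The lowest mouse, E5248, and the highest, E5642, differed 3.04-fold. A log2 fold change of -0.26 (standard error 0.28, 95% interval -0.88 to 0.37; adjusted p = 1, edgeR's exact test) moved to -0.03 without E5248 and to -0.05 without E5386 and E5642.

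*Hspb8*, which pairs with BAG3 to send misfolded proteins to autophagy, lies on chromosome 5 from 116408491 to 116422864 (reverse strand). Its levels were 99.4, 105, 76.2 and 93.9 CPM in *Ager*-deleted mice and 105, 120, 102 and 98.7 CPM in controls. E5248 and E5568 were below every control and E5642 above every other mouse, with a log2 fold change of -0.18 (standard error 0.10, 95% interval -0.41 to 0.04). It was -0.10 without E5248, without E5386 and E5642, and with the level of the skeletal muscle markers as a covariate. *Cryab* encodes αB-crystallin, abundant in oligodendrocytes and astrocytes, and lies on chromosome 9 from 50751325 to 50756636 (forward strand), where it overlaps *Hspb2* on the opposite strand by 1030 bp. It was at 374, 358, 326 and 332 CPM in *Ager*-deleted mice and at 393, 375, 374 and 335 CPM in controls. Here 3 controls lay above all *Ager*-deleted mice, at the closest E6578 at 374.0 against E1776 at 373.8 CPM, and the other, E6732, lay among them, with a log2 fold change of -0.09 (standard error 0.07, 95% interval -0.25 to 0.08). Of those 3, E5386 and E5642 are the controls with high skeletal muscle markers, and without them *Cryab* was at -0.04, as it was with the covariate. Adjusted p-values were 1 for both genes in edgeR's exact test, and the groups overlapped for both. *Hspb2* itself was at 0.793 to 2.04 CPM.

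The 3 small heat shock genes shared their low mice: E5248, E5568 and E6732 were the 3 lowest for *Hspb1*, for *Hspb8* and for *Cryab*, with E5248 the lowest each time. The same 3 mice had the lowest summed levels of astrocyte, microglia and endothelium markers, but not of the other marker lists. For oligodendrocyte markers the 3 lowest were E6732, E5248 and E5642, and neuron markers were highest in E5248 (4115 CPM). The 6 astrocyte genes (all tested, 0 called) summed to 11430, 12670 and 13560 CPM in E5248, E5568 and E6732, and to 13710 CPM or more in the other 5 mice. The range was 11430 to 16590 CPM in *Ager*-deleted mice and 13560 to 15170 CPM in controls. The part of these cell types in the levels was not tested, and in whole cord fewer cells of a type and less RNA per cell cannot be told apart.

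**Figure D2:**
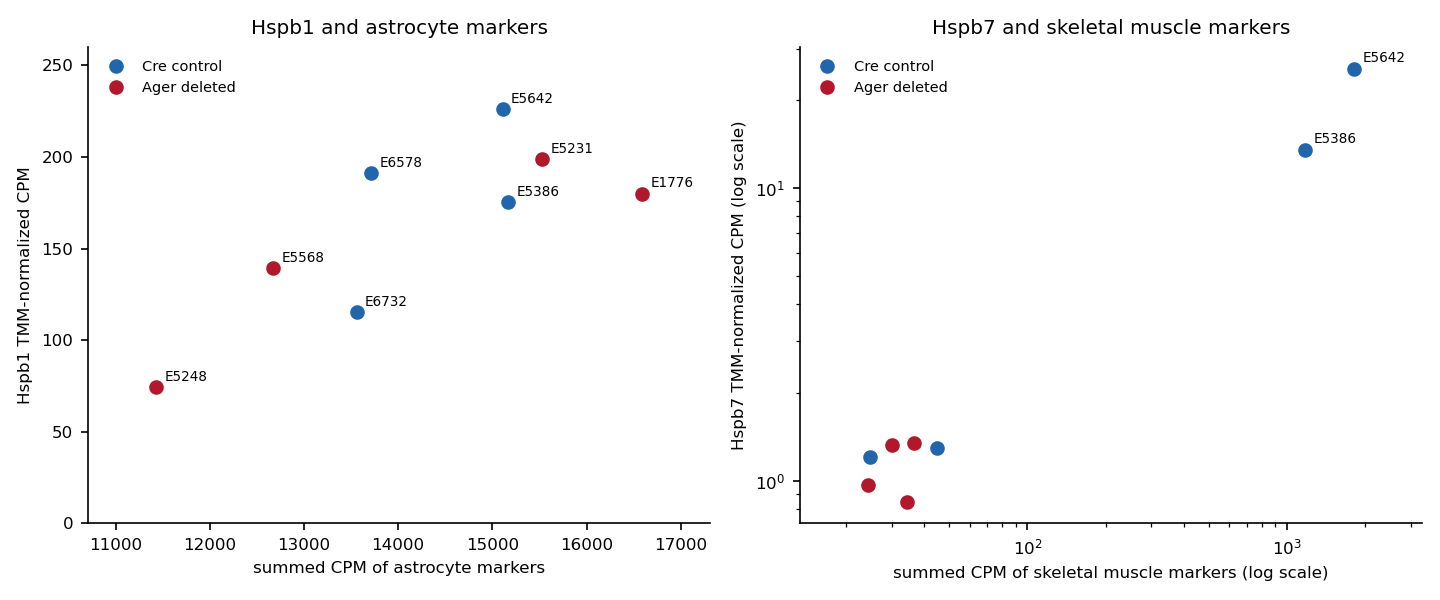
Left, *Hspb1* in TMM-normalized CPM against the summed CPM of 6 astrocyte markers, and right, *Hspb7*, a small heat shock gene outside the 10, against the summed CPM of 19 skeletal muscle markers (both axes log scale), with 1 point per mouse. E5248, E5568 and E6732 are lowest on both axes at left, and controls E5386 and E5642 are apart from the other 6 mice on both axes at right.

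*Bag3* encodes the co-chaperone that links HSP70 to the small heat shock proteins and to selective autophagy. It lies on chromosome 7 from 128523616 to 128546981 (forward strand) and overlaps *2610306O10Rik* on the same strand, so their counts may be shared. *Ager*-deleted mice had 64.5, 53.1, 43.8 and 41.3 CPM and controls 56.4, 54.9, 44.9 and 44.6 CPM. The *Ager*-deleted mice spanned the controls on both sides. Its log2 fold change was 0.01 (standard error 0.14, 95% interval -0.30 to 0.33), and it was -0.12 without E1776.

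**Figure D3:**
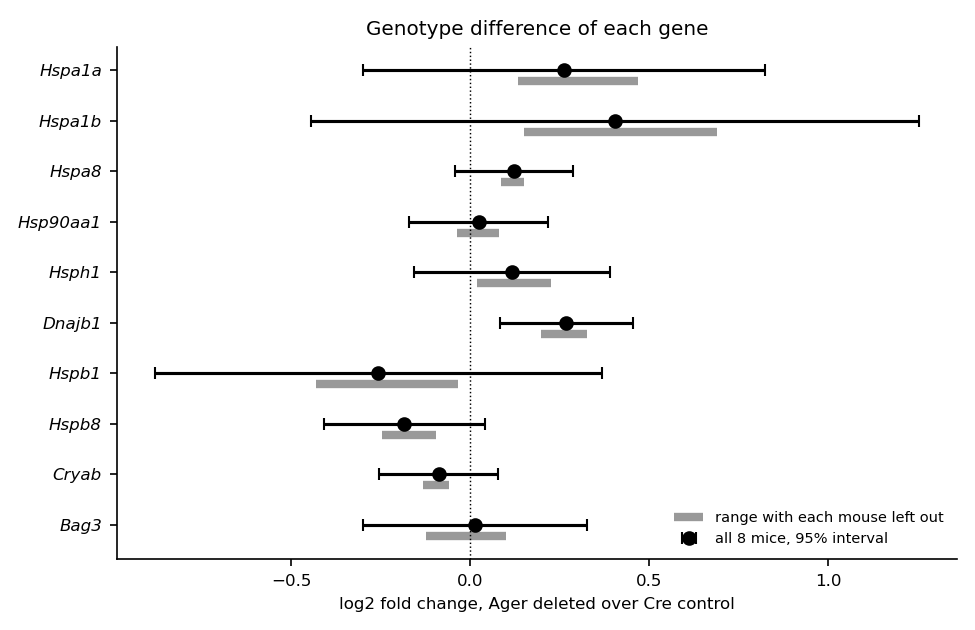
Log2 fold change of each gene (x axis, *Ager*-deleted over Cre control, edgeR's exact test) with its 95% interval from the quasi-likelihood fit as a black bar, and in grey the range with each of the 8 mice left out in turn. The interval of *Dnajb1*, 0.08 to 0.45, is the only one of the 10 that does not hold 0, and the grey ranges of *Hsp90aa1* and *Bag3* hold both signs.

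Read by mouse, the HSP70 genes and their partners were not all high throughout the *Ager*-deleted group. Only for *Hspa8* and *Dnajb1* were all 4 *Ager*-deleted mice above every control, E5231 by the narrow gaps given above. E1776 had the highest level of 4 genes (*Hspa8*, *Hsph1*, *Dnajb1* and *Bag3*), and E5248 of 3 (*Hspa1a*, *Hspa1b* and *Hsp90aa1*). E5231, also *Ager*-deleted, had the lowest level of 4 genes (*Hspa1a*, *Hspa1b*, *Hsp90aa1* and *Hsph1*) and the lowest of its group for 6. The spread between the highest and the lowest mouse was 4.32-fold for *Hspa1b* and 2.34-fold for *Hspa1a*, against 1.19-fold for *Hspa8* and 1.21-fold for *Cryab*. E5248 combined the highest inducible HSP70 with the lowest *Hspb1*, *Hspb8* and *Cryab*, and E5231 the lowest inducible HSP70 with *Hspb1* second only to E5642.

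**Figure D4:**
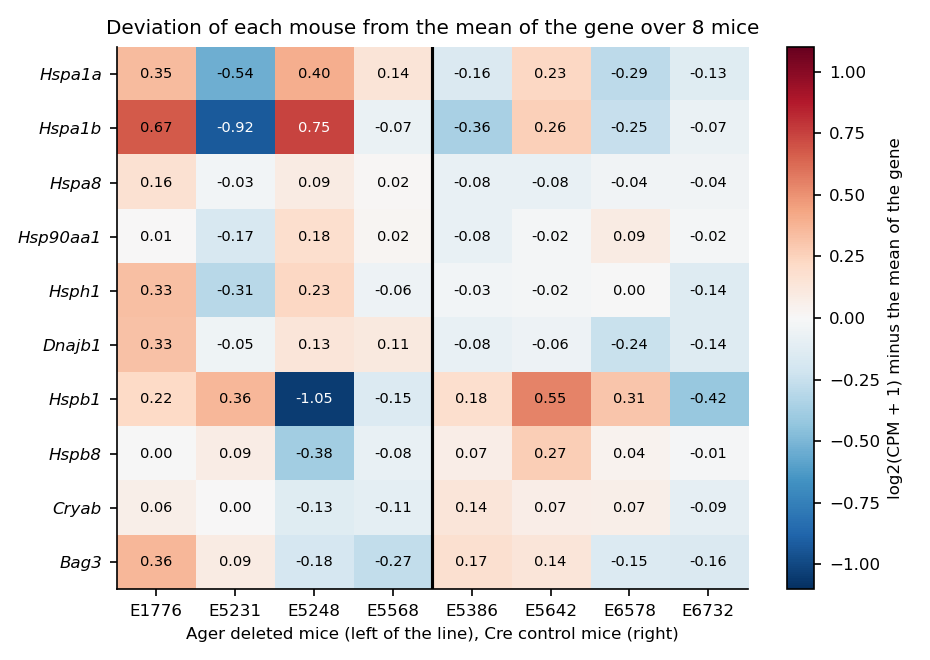
Deviation of each mouse (columns, *Ager*-deleted left of the line) from the mean of each gene (rows) over 8 mice, in log2(CPM + 1), red above and blue below. E5231 is at -0.92 and E5248 at 0.75 for *Hspa1b*, whereas for *Hspb1* E5248 is at -1.05 and E5231 at 0.36.

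Levels differ between these genes, so they were also set per length, as mean CPM per kb of annotated exon over 8 mice. *Cryab* was first at 242 ± 16.8 CPM per kb (SD), followed by *Hspa8* at 234 ± 14.4, *Hsp90aa1* at 170 ± 12.7 and *Hspb1* at 158 ± 48.1 CPM per kb. *Hspb8* followed at 51.3 CPM per kb, *Hsph1* at 29.1, *Bag3* at 19.7 and *Dnajb1* at 15.2 CPM per kb. The inducible HSP70 genes were last, *Hspa1b* at 1.74 and *Hspa1a* at 1.27 CPM per kb. Reads of this pair cannot always be assigned to either gene, and any left uncounted would lower both levels, which was not tested. Over the 8 mice the ranges overlapped for *Cryab* and *Hspa8*, for *Hsp90aa1* and *Hspb1*, for *Hsph1* and *Bag3*, for *Bag3* and *Dnajb1*, and for *Hspa1b* and *Hspa1a*, while the other neighbours in this order did not overlap.

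For the genes whose log2(CPM + 1) spanned more than 1 between mice, the nearest profiles were sought among 16024 genes, by the root mean square difference of centred log2(CPM + 1) over 8 mice. *Hspa1b* was nearest to *Hspa1a* (difference 0.239), whose reads cannot always be told from its own. Next came *Arid5b*, *Gm44164*, *Kctd16* and *Gm37019* (0.264 to 0.315). *Hspb1* was nearest to the metallothionein gene *Mt1* (0.131), which was at 1593, 1385, 651 and 1089 CPM in *Ager*-deleted mice and 1324, 1510, 1413 and 883 CPM in controls. *Slc24a4*, *Sprr1a*, *Tfcp2l1* and *Nupr1* came next (0.143 to 0.180). Like *Hspb1*, *Mt1* was lowest in E5248 and next lowest in E6732, but *Mt1* was chosen for its likeness over these same 8 mice. A gene with no variation between mice would be 0.487 from *Hspb1* and 0.517 from *Hspa1b*.

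The wider chaperone network was read in 9 lists of 92 genes, of which 90 were tested. *Hspb9* and *Cryaa* were too low, at 0 to 9 and 0 to 7 counts per mouse. None of the 90 passed the adjusted p in either edgeR test, and the median log2 fold change was 0.01, as over all genes. At an unadjusted p under 0.05 in the exact test there were 2 higher and 6 lower in *Ager*-deleted mice, beside 1.20% and 3.06% of all genes, and the quasi-likelihood test gave 10, beside the 6.71% above. The groups did not overlap for 4 of the 90, *Dnajb11* and *Cct5* (higher in *Ager*-deleted mice) and *Hsf5* and *Synpo2* (higher in controls), beside 1.97% and 1.91% of all genes.

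The transcription factor *Hsf1* itself was at 44.3, 36.2, 39.1 and 35.5 CPM in *Ager*-deleted mice and 39.3, 33.8, 34.6 and 34.2 CPM in controls (log2 fold change 0.13, standard error 0.08, adjusted p = 1, edgeR's exact test). The groups overlapped through control E5386. *Hsf5*, of which the cord had under 1 CPM, had a log2 fold change of -0.52 (standard error 0.20, adjusted p = 1, edgeR's exact test) from 16 to 35 counts per mouse. Among HSP90 genes *Hsp90ab1*, the constitutive HSP90, had a log2 fold change of 0.10 (standard error 0.08) and mitochondrial *Trap1* of 0.13 (standard error 0.06). In the endoplasmic reticulum, *Hspa5* (BiP) and *Hyou1* were the 2 genes with an unadjusted p under 0.05 and higher in *Ager*-deleted mice (log2 fold changes 0.18 and 0.22). Among J-domain partners, *Dnajb9* was on the other side (-0.22, standard error 0.08) and *Dnajb11* on the same side (0.12, standard error 0.06). Adjusted p-values of *Hspa5*, *Hyou1* and *Dnajb9* were 1 in edgeR's exact test. *Hspa5* ranged from 349 to 416 CPM in *Ager*-deleted mice and from 321 to 359 CPM in controls.

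Among co-chaperones, *Hspbp1*, an exchange factor for HSP70, had a log2 fold change of 0.15 (standard error 0.07) and *Vbp1*, a prefoldin subunit, of -0.21 (standard error 0.13). *Synpo2*, an actin-binding partner of BAG3 in selective autophagy, was at 13.5 to 16.2 CPM in *Ager*-deleted mice and 17.2 to 20.1 CPM in controls. All controls were above all *Ager*-deleted mice, with a log2 fold change of -0.28 (standard error 0.08; adjusted p = 0.915, edgeR's exact test). *Sqstm1*, the autophagy receptor p62, overlapped between the groups at 490 to 567 and 507 to 551 CPM.

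The largest difference in the wider network belonged to *Hspb7*, a small heat shock gene of heart and skeletal muscle. E5386 had 13.5 CPM and E5642 had 25.6 CPM, against 0.846 to 1.34 CPM in the other 6 mice. Those 2 controls are the mice with the high skeletal muscle markers. Its log2 fold change of -3.21 (standard error 0.89; adjusted p = 0.0849, edgeR's exact test) was -0.16 without the 2 controls and -0.09 with the skeletal muscle score (mean log2 level of the muscle markers) as a covariate. *Unc45b*, a myosin chaperone of muscle, went from -0.93 (adjusted p = 0.871, edgeR's exact test) to -0.11 and -0.12 under the same settings, and *Hspb6* from -0.40 to -0.13 and -0.14. Among the 10 genes, *Hspb1* moved from -0.26 to -0.05 and -0.08, and *Bag3* from 0.01 to 0.17 and 0.16, while *Dnajb1* was at 0.33 under both.

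**Figure D5:**
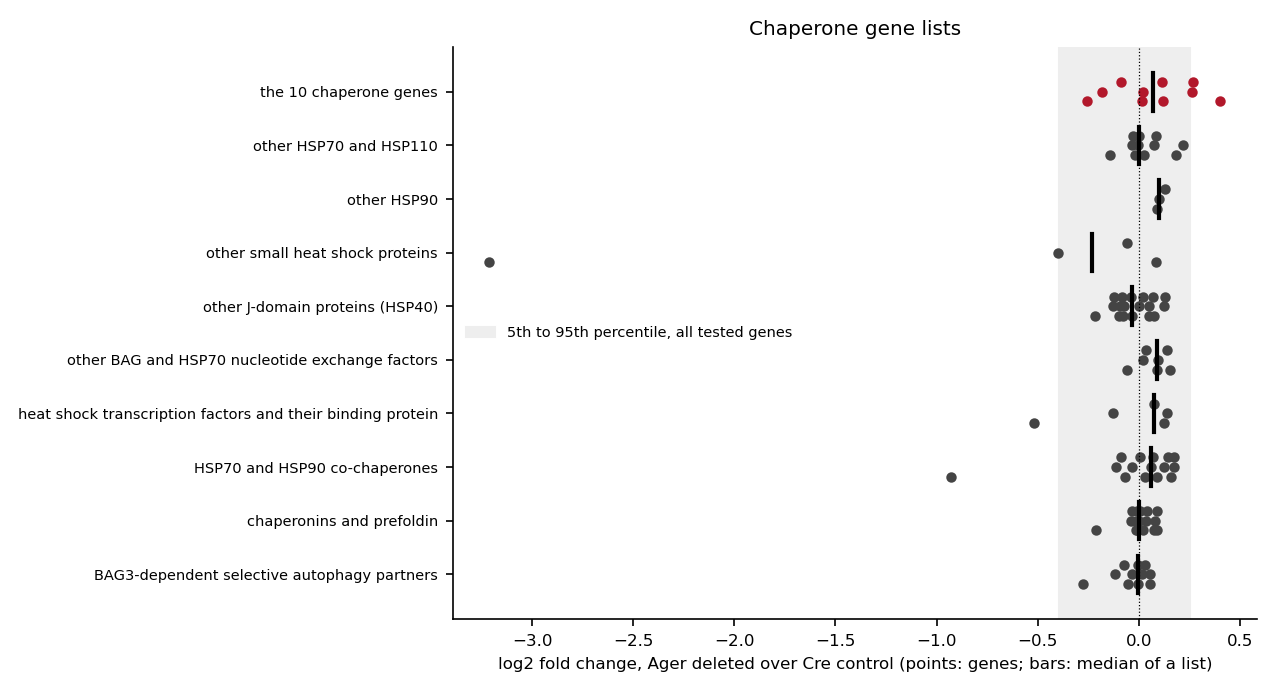
Log2 fold change (x axis, *Ager*-deleted over Cre control) of each tested gene in the 10 chaperone genes (red) and in the 9 wider lists (grey), with the median of each list as a bar and the 5th to 95th percentile of all 19470 genes (-0.39 to 0.26) shaded. The medians of the lists lie between -0.23 and 0.10, and the gene at -3.21 is *Hspb7*.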

How the data were processed

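RNA was isolated from whole lumbar spinal cord (RIN 7.9 to 8.7 by the labels) and polyadenylated RNA was sequenced with a stranded kit. Per the study's methods and the submitters' processing notes, the authors trimmed reads with Trimmomatic 0.36, aligned read pairs to mm10 with STAR 2.7.3a, counted pairs per GENCODE M25 gene (featureCounts, Subread 1.6.3), and deposited raw counts and log2 TMM-normalized CPM (edgeR 3.26.8 by the processing notes, an earlier release by the study's methods). Replicates were not pooled. The deposited log2 values were used only as a check and differed from values recomputed from the counts by at most 4.78e-06.

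Counts were filtered with filterByExpr (minimum 10 counts), TMM-normalized and tested in edgeR 4.0.16 (R 4.3.3) with the exact test, which the study's methods name, and with the quasi-likelihood test, which gave the standard errors and 95% intervals. Benjamini-Hochberg adjustment was over all 19470 genes (threshold 0.05). Log2 fold changes are *Ager* deleted over Cre control. Single genes were compared by exact two-sided permutation of log2(CPM + 1) over 4 mice against 4. The labels name separate mice. A level of 3 counts equals at most 0.0963 CPM, and counting errors and binomial intervals cover counting error only. The test scripts were tested on simulated data first.

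The 10 genes and all lists were chosen with earlier results of these data known. Named genes were the 10, *Ager*, and in each wider list those with an adjusted p under 0.05, the smallest p and the largest log2 fold change, with the 5 nearest profiles of genes spanning over 1. Other wider-network genes (*Hsf1*, *Hsp90ab1*, *Hspa5*, *Hspb2*, *Hspb6*, *Sqstm1*, *Dnajb11*, *Cct5*, *Hspb9* and *Cryaa*) were chosen after their values were seen. Positions are from GENCODE M21 on GRCm38, an earlier release than M25, and coding sequences were taken as the longest open reading frame of its transcripts. Alternatives were DESeq2 1.42.0, limma-voom (limma 3.58.1), other normalizations, filters, dispersions and pseudocounts, the skeletal muscle score as a covariate, removal of controls E5386 and E5642, and each mouse left out.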

Additional observations from a re-analysis of the deposited data

Results flagged for a closer look

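In the 4 Cre-expressing controls, 1 mouse stood far from the other 3 in the summed level of 2 marker lists, by a gap near the whole range of the group. Liver genes summed to 612 CPM in E6732, against 1.34 to 1.79 CPM in the other controls. Adipocyte genes summed to 141 CPM in E5386, against 2.18 to 6.95 CPM. A total of 66 groups of 4 mice were checked, over the 10 chaperone genes and the marker and gene lists, and chance flags about 1 in 20. No group of any of the 10 chaperone genes was flagged. The part of these markers in the chaperone levels was not tested.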

How the results depend on the processing

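None of the 10 chaperone genes passed the adjusted p under any of 20 alternatives, whereas the count over all genes moved from 14 to 8 with CPM of at least 1 in 4 mice, 78 with common and tagwise dispersions, 1 with the quasi-likelihood test, limma-voom or the muscle covariate, 29 with DESeq2, 67 without E5386 and E5642, and 3 to 98 with each mouse left out. In the wider network 1 gene, *Hspb7*, passed with common and tagwise dispersions (adjusted p = 0.00413), and with each mouse left out the count was 0 to 1 (*Hspb7* without E6578 or E6732, adjusted p = 0.000649 and 0.000566, edgeR's exact test). Other settings left the direction of the 10 log2 fold changes in 116 of 118 cases, with no adjusted p under 0.346. The 2 reversals were *Hsp90aa1*, at -0.019 with the muscle covariate and -0.027 without E5386 and E5642, where its difference of mean log2(CPM + 1) was -0.025. With each mouse left out *Hsp90aa1* ranged from -0.037 to 0.082 and *Bag3* from -0.12 to 0.10. *Ager* ranged from -0.94 to -0.69 and passed only without E5386 (adjusted p = 0.0442, edgeR's exact test). Without E5386 and E5642, 4 mice against 2 allow no exact permutation p under 0.0667, and the differences of mean log2(CPM + 1) were 0.10 for *Hspa8* (p = 0.133), 0.32 for *Dnajb1* and -0.60 for *Ager*. *Hspa1a* and *Hspa1b* rest on the fewest counts of the 10, 71 to 308 per mouse, yet their SD between mice within a group, 0.720 to 3.02 CPM, was above the counting errors of 0.227 to 0.416 CPM in E5231 and E5642. No paired analysis was possible because the labels name mice by ID and give no replicate numbers shared between genotypes.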
